A study of Drosophila melanogaster with 7 samples.

Results

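*insomniac* (*inc*), *Cullin-3* (*Cul3*), *homer* and *taranis* (*tara*) are 4 genes that were chosen because flies mutant for them sleep less or more than other flies. They were found by symbol among the 16764 genes that each of 7 single-cell RNA-seq runs lists, each gene once in every run, and the rule that names them uses no measured value. Their unique molecular identifiers (UMIs, each standing for 1 captured transcript) were summed per run and per cell type named by marker genes, and a level is given as CPM, the UMIs of the gene per 1000000 UMIs of that cell type. Levels are not compared between the genes, because UMIs were counted at transcript ends and no length scale applies.

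Each run was a single library of pooled central brains, without optic lobes, of male flies from 5 to 9 of 10 *Drosophila* genetic reference panel (DGRP) lines, which are inbred wild-type lines with known genomes. Flies aged 4 to 8 days at loading had been entrained for 3 days in 12 h of light and 12 h of darkness, were asleep (S), awake (W), sleep-deprived by rotation of their tubes (SD), in recovery sleep after it (RS), asleep as yoked controls (YC-S) or asleep on the hypnotic gaboxadol (GBX-S), and were collected at Zeitgeber time (ZT, hours after lights on) 2, 8, 14 or 20. The run table gives ages up to 9 days. It places ZT8 and ZT20 in run 1, ZT2 and ZT20 in runs 2 and 3, ZT2 and ZT14 in run 4, ZT20 in run 5 and ZT8 in runs 6 and 7. With their hours, the conditions were S ZT12-20, SD ZT12-20, W ZT0-8 and SD ZT0-8 in run 1, S ZT12-20, SD ZT12-20, SD ZT12-2 and RS ZT0-2 in run 2, S ZT12-20, YC-S ZT12-20, SD ZT12-2 and RS ZT0-2 in run 3, W ZT0-2, RS ZT0-2, S ZT12-14 and SD ZT12-14 in run 4, S ZT12-20 and SD ZT12-20 in run 5, and W ZT0-8, SD ZT12-8 and GBX-S ZT12-8 in runs 6 and 7. All brains were dissected with the transcription inhibitor actinomycin D. Sleeping and awake lines were mixed in every run, with 1 sleep line of 5 in run 1 and 7 of 9 in run 3, and no table joins cells to lines, so sleep was not compared with wakefulness here. The 7 runs are the replicates throughout, and cells of a run are not. Spread between runs covers lines, conditions, ZT times and library preparation together, which cannot be told apart.

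In the fly brain, *inc* encodes a small protein with a BTB domain, related to the KCTD family, that binds the *Cul3* protein and brings substrates to it. *Cul3* is the scaffold of a ubiquitin ligase, is switched on by attachment of the small protein *Nedd8*, and like *inc* is needed in neurons for normal sleep length. *homer* encodes a postsynaptic scaffold protein that links metabotropic glutamate receptors and calcium release channels to *Shank* proteins, and *tara* encodes a transcriptional coregulator of the Trithorax group that promotes sleep together with Cyclin A in a small set of neurons.

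On the genome BDGP6, *inc* lies on the plus strand of chromosome X from 1483479 to 1517615, with 3 annotated transcripts. Its exons overlap those of *CG14795* on the opposite strand (1512227 to 1512803), and *Nmdar2* lies in the same interval on the opposite strand without exon overlap, as does an annotated transposable element (1514190 to 1514452) on the strand of *inc*. Where these exons overlap, reads of *inc* and *CG14795* can be told apart by strand alone, and the strand setting of the counting is not given in the sources used here. *Cul3* lies on the minus strand of chromosome 2L from 15265245 to 15272024 with 4 transcripts, and *homer* on the minus strand of 2L from 6719394 to 6723359 with 6 transcripts. *tara* lies on the plus strand of chromosome 3R from 16225651 to 16260329 with 2 transcripts. No other annotated gene overlaps *Cul3*, *homer* or *tara*.

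The runs held 10241 to 36984 barcodes and 49949595 to 311443505 UMIs, and 3.5% to 4.3% of the barcodes of a run also occurred in another run. The lowest UMI count of a barcode was 500 in runs 1, 5, 6 and 7 and between 2658 and 2914 in runs 2 to 4. After filters and doublet removal 150044 of 164038 barcodes remained, in 244 clusters built on 1014 variable genes that did not include the 4. By their markers 131267 cells were neurons and 7570 were glia of a named type, and the names below stand for clusters that resemble the type by its markers. They are astrocyte-like glia (ALG), ensheathing glia (EG), perineurial glia (PG), Kenyon cells of the mushroom body (γ-KC, α/β-KC and α′/β′-KC), dopaminergic neurons with the PAM markers (PAM) or without (non-PAM), serotonergic (5-HT) and octopaminergic (Oct) neurons, clock neurons, ellipsoid body (EB) ring neurons, anterodorsal projection neurons (adPN) and peptidergic Ilp/Dh44 neurons. Of the other neurons 109876 had no name and 141 were KCs of no single subtype, which count among neurons and KCs only. The defining glial marker *repo* stood at 195 to 315 CPM in glia and 1.46 to 7.80 CPM in neurons, whereas 6 neuronal markers together stood at 564 to 2277 CPM in glia (median 1219) and 6740 to 7679 CPM in neurons. RNA of neuronal markers was thus present in the glial clusters of every run, and its part in the glial levels of the 4 genes was not tested.

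All 4 genes were detected in neurons and glia of every run, in total with 47944 UMIs of *inc*, 57782 of *Cul3*, 60645 of *homer* and 105963 of *tara*. At least 1 UMI of *tara* was found in 46.7% of neurons and 17.0% of glia, but the median neuron had 5846 UMIs and the median glial cell 3513. When each cell was thinned to 500 UMIs, which left out no cell, the expected share with *tara* was 5.09% of neurons (3.92% to 5.84% over runs) and 2.31% of glia (1.63% to 2.99%). The corresponding shares were 2.12% and 2.16% for *inc*, 2.43% and 1.69% for *Cul3*, and 2.49% and 1.91% for *homer*. As a gauge of RNA outside its own cells, the synaptic gene *nSyb* was expected in 57.3% of neurons and 14.7% of glia at the same depth, and *repo* in 9.95% of glia and 0.312% of neurons. The ALG marker *alrm* was expected in 32.9% of glia and 2.49% of neurons, a neuronal share near those of *inc*, *Cul3* and *homer*.

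The first comparison asked whether the 4 genes differ between glia and neurons. *tara* was lower in glia and *inc* was higher once the scaling between cell types was fitted, whereas *Cul3* and *homer* did not pass the test. For 2 of 4 genes the adjusted p was under 0.05 in edgeR's quasi-likelihood test with the run as a block, beside 74.5% of all 8844 genes tested. The edgeR scaling (TMM) sets the bulk of genes alike in both sums, and the median gene differed by -0.06 on the log2 scale. On plain CPM the median gene was lower in glia, at -0.45, so that the medians of the 2 scales lay 0.40 apart. Differences of the 4 genes that passed the test between cell types are therefore given on both scales, and CPM differences are of log2(CPM + 1). On CPM an exact sign-flip test over runs called 7247 of the 8844 genes between glia and neurons, in either direction. Counts of lower runs and missing overlaps in glia are to be read beside that share.

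*tara* stood at 72.4 to 107 CPM in neurons (median 92.5) and at 24.0 to 57.9 CPM in glia (median 48.6). Glia were lower in 7 of 7 runs and the groups did not overlap. The fitted log2 difference was -0.62 ± 0.11 (SE), 1.53-fold lower, with an adjusted p of 0.00105 in edgeR, and the CPM difference was -1.09 ± 0.39 (SD over runs). The difference passed the test in 22 of 22 alternative settings, at -0.60 in runs 1 to 4 alone and -0.79 in runs 5 to 7 alone.

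*inc* stood at 40.1 to 52.0 CPM in neurons (median 40.4) and at 32.4 to 58.8 CPM in glia (median 41.4). The 2 ranges overlapped, and glia were higher in 3 of 7 runs. The fitted log2 difference was 0.46 ± 0.11 (SE) with an adjusted p of 0.0044 in edgeR, but on CPM it was -0.0044 ± 0.26 (SD), so that the higher glial level of *inc* is a difference relative to the bulk of genes and its sign turned with the scaling. On the fitted scale the difference was 0.31 in runs 1 to 4 and 0.51 in runs 5 to 7.

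*Cul3* stood at 44.5 to 55.2 CPM in neurons (median 50.2) and at 28.8 to 40.4 CPM in glia (median 34.8). *homer* stood at 51.4 to 66.1 CPM in neurons (median 53.9) and at 22.8 to 45.7 CPM in glia (median 37.2). For both genes glia were lower in 7 of 7 runs without overlap, beside CPM differences of -0.54 ± 0.13 for *Cul3* and -0.66 ± 0.38 for *homer* (SD). The median of all genes on that scale was -0.45, and the sign-flip test of CPM called 7247 of 8844 genes, so neither result sets these 2 genes apart. The fitted differences were -0.10 ± 0.06 (SE, edgeR adjusted p = 0.156) for *Cul3* and -0.18 ± 0.11 (SE, edgeR adjusted p = 0.175) for *homer*. Without run 4 the *Cul3* difference became -0.22 and passed the test (edgeR adjusted p = 0.0203).

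**Figure D1:**
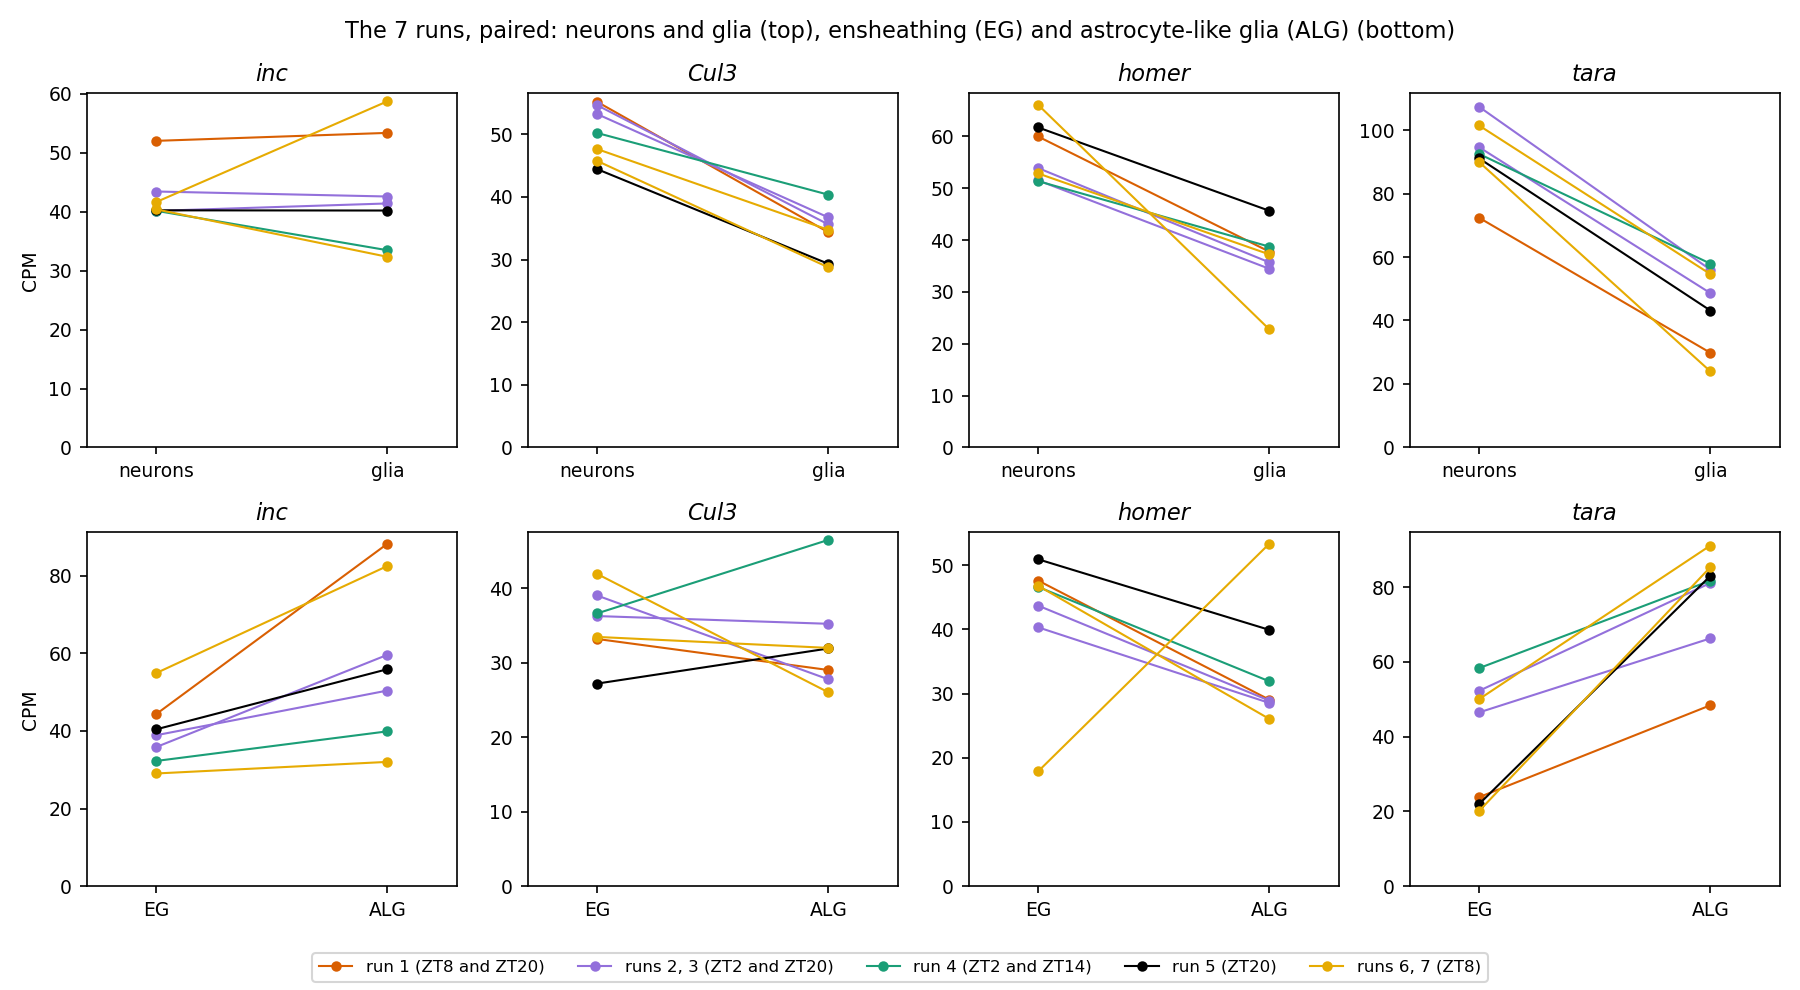
Level in CPM (vertical axis) of each gene in neurons and glia (top row) and in EG and ALG (bottom row), with 1 line per run coloured by the ZT times in the run. In the top row all lines of *Cul3*, *homer* and *tara* fall towards glia while 3 of 7 lines of *inc* rise, and in the bottom row all 7 lines of *inc* and *tara* rise from EG to ALG.

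Next, each named type was compared with the unnamed neurons of the same runs in 1 edgeR model over 15 types, so that all 14 comparisons share the unnamed neurons. Of 56 comparisons of a gene in a type, 24 passed an adjusted p of 0.05, 3 of 14 for *inc*, 2 of 14 for *Cul3*, 8 of 14 for *homer* and 11 of 14 for *tara*. In glia, 3 of the 4 genes passed in ALG beside 65.9% of all 7658 genes tested, 2 in EG beside 73.2% and 2 in PG beside 74.4%. In KCs, 2 passed in γ-KC beside 56.9% of genes, 1 in α/β-KC beside 57.3% and 2 in α′/β′-KC beside 57.8%. Among aminergic neurons, 1 passed in PAM beside 24.7%, 1 in non-PAM beside 30.8%, 2 in 5-HT beside 35.1% and 2 in Oct beside 36.7%. Among the other neurons, 1 passed in clock neurons beside 38.7%, 1 in adPN beside 46.3%, 2 in EB ring neurons beside 47.1% and 2 in Ilp/Dh44 neurons beside 58.3%. Read against these shares, counts of at most 3 of 4 genes single out no type. On plain CPM the median gene was itself lower than in unnamed neurons in ALG (-0.74), EG (-0.58), PG (-0.44) and Ilp/Dh44 neurons (-0.44). CPM differences, counts of lower runs and missing overlaps in these types are to be read beside these medians.

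**Figure D2:**
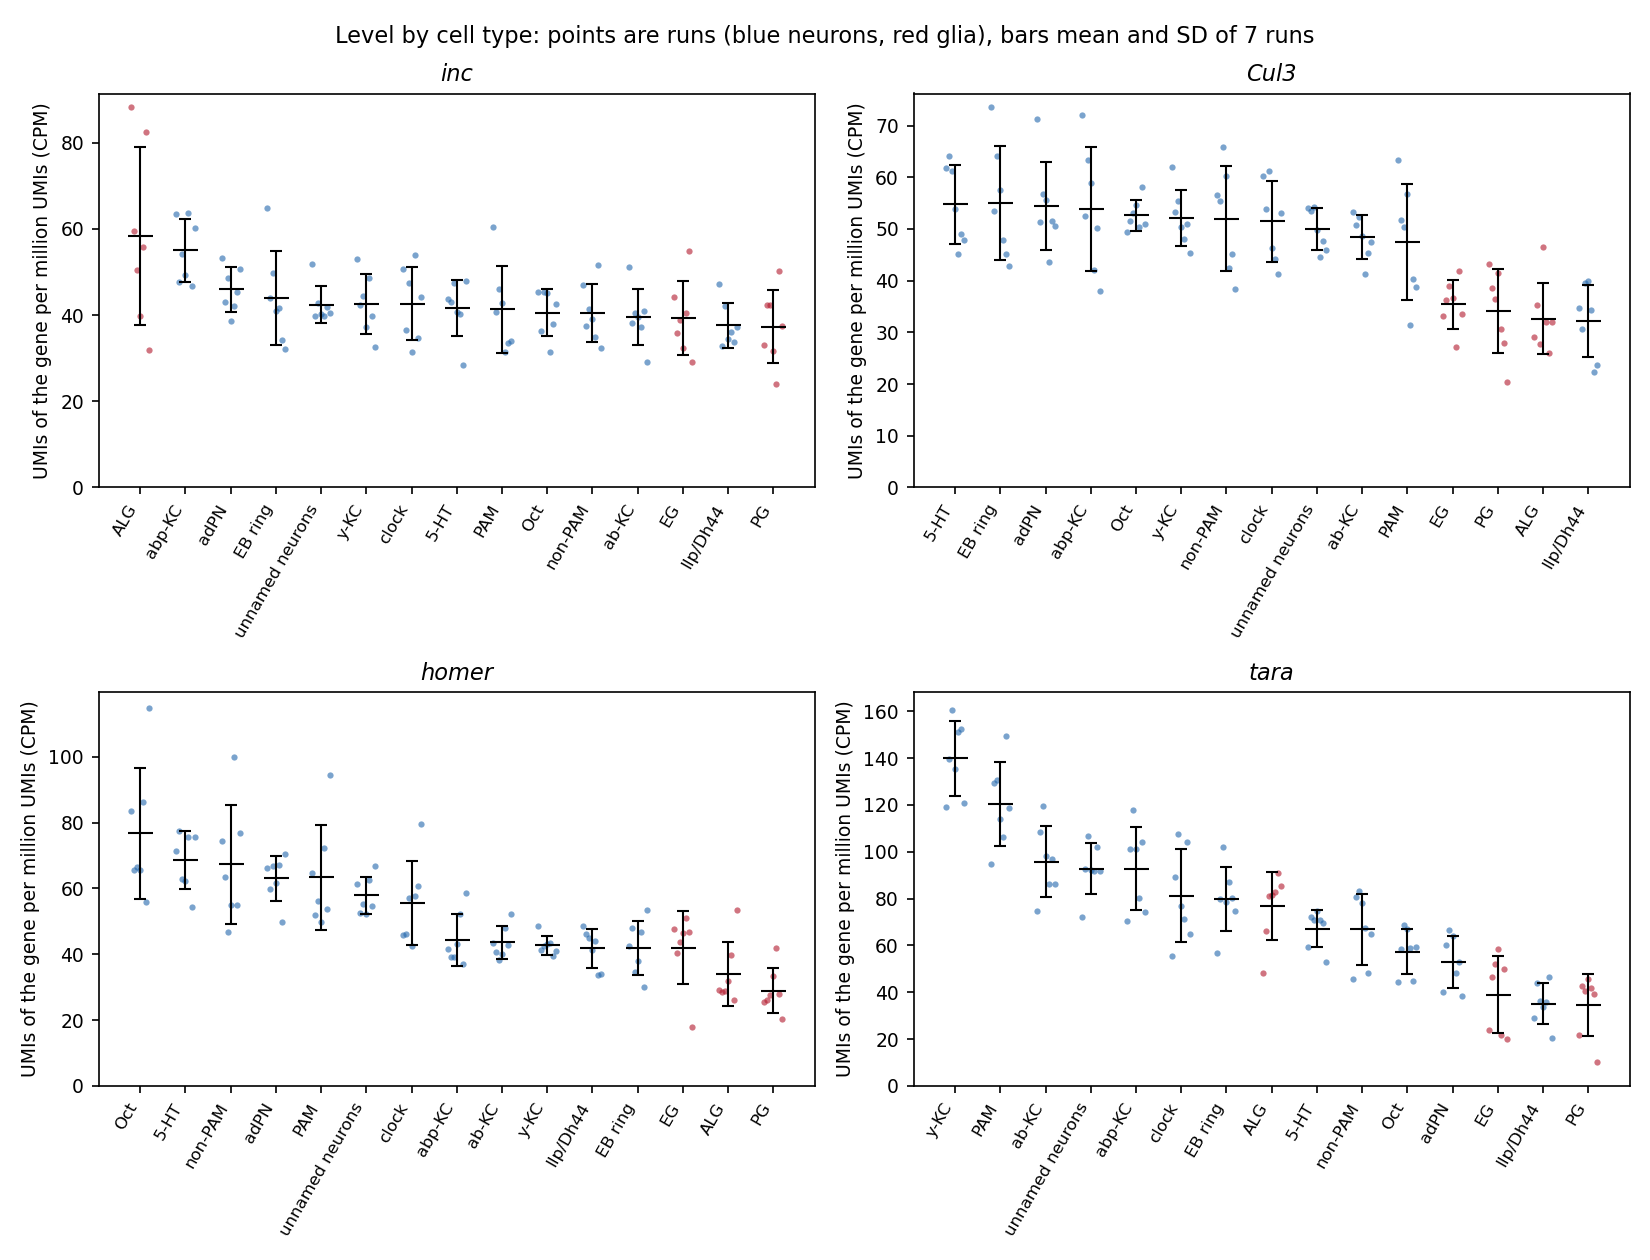
Level of each gene in CPM (vertical axis) in 15 cell types ordered by mean log2(CPM + 1), with 1 point per run (blue, neurons; red, glia) and bars for the mean and SD of 7 runs. *tara* spreads from a mean of 140 CPM in γ-KC to 34.6 CPM in PG, whereas *inc* lies between 37.3 and 58.3 CPM in all types.

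*inc*, the substrate adaptor, was highest in ALG and in α′/β′-KC. In ALG it stood at 32.0 to 88.2 CPM (median 55.9), against 39.7 to 51.8 CPM in unnamed neurons (median 40.5). The lowest of these ALG values, in run 7, rests on 3 UMIs in 73 cells. The ranges overlapped, and ALG was higher in 5 of 7 runs. The fitted log2 difference was 1.04 ± 0.11 (SE, 2.06-fold, edgeR adjusted p = 5.84e-15) and the CPM difference 0.38 ± 0.45 (SD), higher on both scales although the exact sign-flip test of CPM over runs did not pass. In α′/β′-KC *inc* stood at 46.6 to 63.7 CPM (median 54.1) and was above the unnamed neurons in 7 of 7 runs, by 0.32 ± 0.09 (SE, edgeR adjusted p = 0.00211) as fitted and 0.36 ± 0.18 (SD) on CPM, and it passed in 21 of 21 alternatives. In the 2 other KC types its level was 32.5 to 53.1 CPM (γ-KC) and 29.1 to 51.2 CPM (α/β-KC), and neither passed the test. EG carried 29.0 to 54.9 CPM (median 38.9), where the fitted difference of 0.36 (edgeR adjusted p = 0.000823) turned to -0.13 on CPM and was lost without run 5 (0.21) or run 6 (0.21). Mean levels in the other types lay between 37.3 CPM in PG and 46.0 CPM in adPN. In PG the fitted difference of 0.20 did not pass and was -0.21 on CPM, and without run 4 it passed at 0.25 (edgeR adjusted p = 0.0473).

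The 2 clusters of ALG differed in *inc* and in depth. The larger cluster (1408 cells, median 3424 UMIs per cell) stood at 65.0 CPM from 339 UMIs and the smaller one (857 cells, median 994 UMIs) at 32.6 CPM from 67 UMIs. *tara* showed a wider gap, with 94.9 and 25.3 CPM in the same clusters, while *Cul3* was at 39.1 and 19.0 CPM and *homer* at 33.2 and 24.3 CPM. With all runs summed, and by the median over runs, all 4 genes were lower in the cluster with fewer UMIs per cell. Single runs went the other way. In the smaller cluster *Cul3* was 61.8 CPM in run 4 and 63.0 CPM in run 7, and *homer* 94.5 CPM in run 7. No run of the larger cluster exceeded 44.0 CPM for *Cul3* or 42.0 CPM for *homer*, and its *inc* level in run 7 was 0.0 CPM. The part of depth in these differences was not tested.

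*Cul3*, the ligase scaffold, was even across most neurons and lower in Ilp/Dh44 neurons. Its mean lay between 47.5 CPM in PAM and 55.0 CPM in EB ring neurons in all neuronal types but Ilp/Dh44 neurons, and unnamed neurons stood at 44.6 to 54.3 CPM (median 49.8). The median of all genes in Ilp/Dh44 neurons was -0.44 on CPM. *Cul3* stood there at 22.4 to 40.0 CPM (median 34.3), below and without overlap with the unnamed neurons. The fitted log2 difference was -0.28 ± 0.08 (SE, edgeR adjusted p = 0.00797), against -0.65 ± 0.29 (SD) on CPM, and it passed in 9 of 21 alternatives. It was not past the threshold without run 1 (-0.24), run 2 (-0.20) or run 6 (-0.22). In EB ring neurons, whose R5 subtype is known for tracking sleep need, *Cul3* stood at 42.8 to 73.5 CPM (median 53.5) and overlapped the unnamed neurons. The fitted difference was 0.20 ± 0.07 (SE, edgeR adjusted p = 0.0182) and 0.11 on CPM, higher in 4 of 7 runs, and it was lost without run 1 (0.15) or run 3 (0.18). In ALG, EG and PG the level was lower than in unnamed neurons in 7 of 7 runs on CPM, by -0.62, -0.49 and -0.57. The medians of all genes there were -0.74, -0.58 and -0.44. The fitted differences of *Cul3* were -0.03, -0.04 and -0.12, and none passed with all runs. In PG the fitted difference passed without run 5 (-0.22, edgeR adjusted p = 0.0239), run 6 (-0.19, edgeR adjusted p = 0.046) or run 7 (-0.19, edgeR adjusted p = 0.035).

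*homer*, the postsynaptic scaffold, was low in all KCs and in EB ring neurons and high in Oct neurons. Unnamed neurons stood at 52.3 to 66.8 CPM (median 55.3). γ-KC stood at 39.4 to 48.7 CPM (median 42.4), α/β-KC at 38.2 to 52.4 CPM (median 42.8) and α′/β′-KC at 37.2 to 58.5 CPM (median 41.6). All 3 KC types were below the unnamed neurons in 7 of 7 runs, and in γ-KC the ranges did not overlap. The fitted log2 differences were -0.37 ± 0.08, -0.39 ± 0.08 and -0.43 ± 0.08 in that order (SE, edgeR adjusted p = 2.33e-05, 1.39e-05 and 5.85e-06), and each passed in 21 of 21 alternatives. On CPM they were -0.43, -0.40 and -0.39. EB ring neurons stood at 30.1 to 53.5 CPM (median 42.4), again lower in 7 of 7 runs, by -0.42 ± 0.09 as fitted (SE, edgeR adjusted p = 5.32e-05) and -0.47 on CPM. This call was also made in 21 of 21 alternatives.

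Oct neurons, the source of the wake-promoting amine octopamine, carried 55.8 to 115 CPM of *homer* (median 66.4), above the unnamed neurons in 7 of 7 runs with overlapping ranges. The fitted difference was 0.32 ± 0.09 (SE, 1.24-fold, edgeR adjusted p = 0.00277) and 0.37 on CPM, and it passed in 19 of 21 alternatives. In 5-HT neurons *homer* stood at 54.3 to 77.3 CPM (median 71.5) and differed by 0.22 ± 0.09 as fitted (SE, edgeR adjusted p = 0.0427) and 0.23 on CPM, which passed in only 11 of 21 alternatives and was lost without any 1 of runs 1 to 5 (0.17 without run 2, 0.23 without run 1, the 2 ends of the range). PG was lowest, at 20.5 to 41.8 CPM (median 27.8), with -0.55 ± 0.10 fitted (SE, edgeR adjusted p = 5.61e-07) and -1.0 on CPM, lower in 7 of 7 runs without overlap. In ALG it stood at 26.0 to 53.3 CPM (median 29.0), a CPM difference of -0.79 beside -0.74 for the median gene. The fitted difference from the unnamed neurons was -0.25 ± 0.11 (SE, edgeR adjusted p = 0.0341), a call lost without run 2 (-0.23) or run 4 (-0.23). Ilp/Dh44 neurons, at 33.6 to 48.5 CPM (median 44.1), were below the unnamed neurons in 7 of 7 runs without overlap. The CPM difference was -0.47 beside -0.44 for the median gene, and the fitted difference of -0.08 did not pass (edgeR adjusted p = 0.486). EG gave 0.12 fitted and -0.51 on CPM, a sign that turned with the scaling, and did not pass.

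*tara*, the coregulator, varied most between cell types. γ-KC stood at 119 to 161 CPM (median 139) and unnamed neurons at 72.2 to 107 CPM (median 92.1). The ranges did not overlap, and γ-KC was higher in 7 of 7 runs by 0.62 ± 0.08 as fitted (SE, 1.54-fold, edgeR adjusted p = 3.24e-11) and 0.59 ± 0.11 (SD) on CPM. PAM neurons, dopaminergic cells that innervate the mushroom body, followed at 94.9 to 149 CPM (median 119), higher by 0.32 ± 0.08 as fitted (SE, edgeR adjusted p = 0.00263) and 0.37 on CPM in 7 of 7 runs, which passed in 15 of 21 alternatives. α/β-KC at 74.9 to 120 CPM and α′/β′-KC at 70.5 to 118 CPM overlapped the unnamed neurons, with fitted differences of 0.06 and -0.02.

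At the other end, Ilp/Dh44 neurons stood at 20.4 to 46.7 CPM of *tara* (median 36.0), 2.16-fold lower as fitted (-1.11 ± 0.10, SE, edgeR adjusted p = 4.22e-17) and -1.41 on CPM. adPN stood at 38.3 to 66.5 CPM (median 53.0) and Oct neurons at 44.3 to 68.6 CPM (median 58.8). In these 3 types no run reached the lowest run of the unnamed neurons. The fitted differences were -0.88 ± 0.08 in adPN (SE, edgeR adjusted p = 9.13e-16) and -0.74 ± 0.09 in Oct neurons (SE, edgeR adjusted p = 1.86e-10), beside -0.82 and -0.69 on CPM. 5-HT neurons at 53.0 to 74.7 CPM (median 70.7) and non-PAM neurons at 45.7 to 83.4 CPM (median 67.4) were lower in 7 of 7 runs with some overlap, by -0.51 ± 0.09 (SE, edgeR adjusted p = 2.99e-06) and -0.50 ± 0.09 (SE, edgeR adjusted p = 1.11e-05) as fitted and by -0.46 and -0.49 on CPM. In clock neurons the level of 55.4 to 108 CPM (median 76.9) overlapped the unnamed neurons, and the difference of -0.23 ± 0.09 as fitted (SE, edgeR adjusted p = 0.0296) and -0.22 on CPM passed in 8 of 21 alternatives and was lost without run 1, 4, 5 or 7 (-0.17 without run 7 to -0.21 without run 4).

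In glia *tara* was unequal. PG stood at 10.2 to 45.7 CPM (median 40.7) and EG at 20.1 to 58.3 CPM (median 46.5), both without overlap with the unnamed neurons and lower by -0.97 ± 0.10 and -0.71 ± 0.09 as fitted (SE, edgeR adjusted p = 1.7e-15 and 1.71e-11), beside -1.53 and -1.34 on CPM. The PG value of run 7 rests on 3 UMIs. With all runs summed, the larger PG cluster (863 cells) stood at 32.7 CPM. The smaller one (243 cells) stood at 76.6 CPM, with 0.0 to 225 CPM over the runs. ALG stood at 48.4 to 91.1 CPM (median 81.7), where the fitted difference was 0.24 ± 0.09 (SE, edgeR adjusted p = 0.0217) but the CPM difference was -0.29 ± 0.19 (SD) and lower in 7 of 7 runs, so the direction in ALG against neurons turned with the scaling. The fitted call was lost without any 1 of runs 1, 3, 5, 6 or 7 (0.10 without run 5 to 0.21 without run 1).

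**Figure D3:**
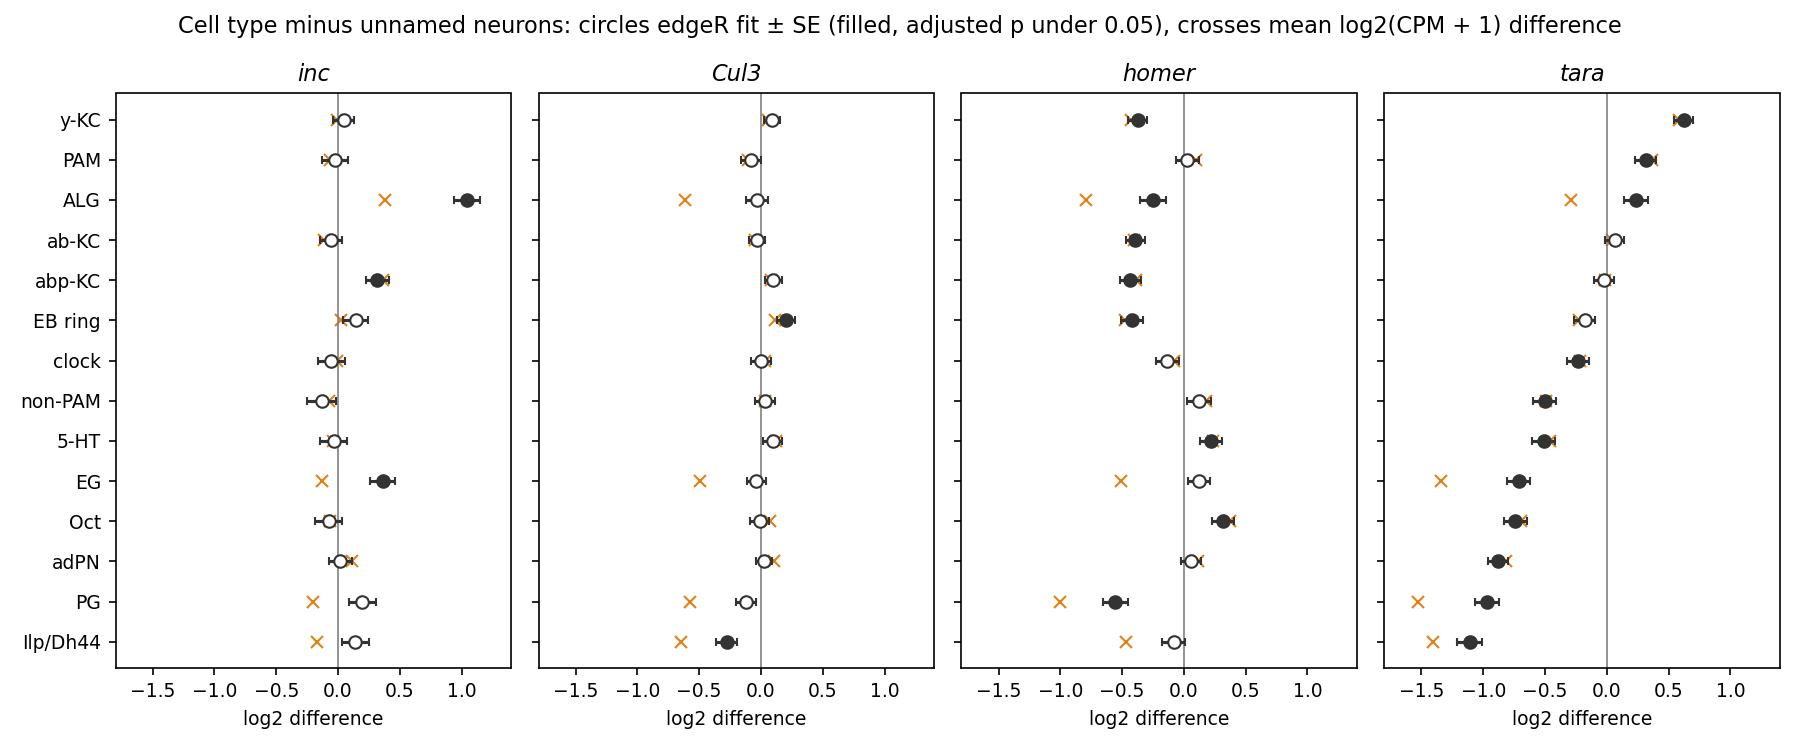
Log2 difference (horizontal axis) of each named type from the unnamed neurons, as fitted by edgeR (circles with SE, filled where the adjusted p was under 0.05) and as the mean difference of log2 CPM over 7 runs (crosses). Circles and crosses part most in ALG, EG, PG and Ilp/Dh44 neurons, where *inc* in EG, PG and Ilp/Dh44 neurons, *homer* in EG and *tara* in ALG change sign, and lie close together in the other types.

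Closely related types were then compared directly, 3 pairs for 4 genes, and 5 of 12 differences passed. Between ALG and EG, which both contact the neuropil, 3 of 4 genes passed beside 21.8% of 7658 genes. *tara* was higher in ALG in 7 of 7 runs, by 0.95 ± 0.11 as fitted (SE, 1.93-fold, edgeR adjusted p = 8.56e-13) and 1.05 ± 0.64 (SD) on CPM. *inc* was also higher in 7 of 7 runs, by 0.68 ± 0.12 as fitted (SE, 1.61-fold, edgeR adjusted p = 1.76e-06) and 0.51 ± 0.28 (SD) on CPM. *homer* was lower in ALG in 6 of 7 runs, by -0.37 ± 0.12 as fitted (SE, edgeR adjusted p = 0.0109) and -0.28 on CPM, a call lost without run 1 (-0.33, edgeR adjusted p = 0.0625). In run 7 *homer* went the other way, with 53.3 CPM in ALG from 5 UMIs and 17.9 CPM in EG from 8 UMIs. *Cul3* differed by 0.01 ± 0.10 (SE) and did not pass. In runs 5 to 7 alone the *inc* difference was 0.40 and did not pass, while in runs 1 to 4 alone all 3 calls were kept. The EG clusters carried much of the ALG marker RNA, at 8973 to 19237 CPM summed over 6 markers against 14157 to 27493 CPM in ALG, and its part in these differences was not tested.

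Between γ-KC and α/β-KC only *tara* passed, 1 of 4 genes called higher beside 11.3% of all genes, at 0.56 ± 0.08 (SE, 1.47-fold, edgeR adjusted p = 1.55e-08) as fitted and 0.55 on CPM, and higher in γ-KC in 7 of 7 runs. *inc*, *Cul3* and *homer* differed by 0.10 ± 0.10, 0.12 ± 0.07 and 0.02 ± 0.08 (SE). Between PAM and non-PAM neurons again only *tara* passed, 1 of 4 genes called higher beside 11.6% of all genes. The PAM range of 94.9 to 149 CPM lay above the non-PAM range of 45.7 to 83.4 CPM in full. The difference was 0.82 ± 0.10 as fitted (SE, 1.77-fold, edgeR adjusted p = 2.72e-10) and 0.86 on CPM. The exact sign-flip test over 7 runs, whose smallest p is 0.0156, called no gene at all in these 3 pairs after adjustment over all genes, the 4 genes included, and *tara* in γ-KC minus α/β-KC had an adjusted p of 0.0519 in it.

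Among the unnamed neurons, clusters were split by their leading transmitter gene into 56727 cholinergic, 15664 glutamatergic and 17874 GABAergic cells. Against cholinergic cells, 2 of the 4 genes were called higher in GABAergic cells beside 27.6% of 8653 genes, and the other 2 lower beside 30.4%. In glutamatergic cells 1 of 4 was called higher beside 23.7%. *tara* stood at 63.3 to 94.0 CPM in GABAergic cells (median 82.96) and at 78.4 to 116 CPM in cholinergic cells (median 99.5). GABAergic cells were lower in 7 of 7 runs although the ranges overlapped, with a fitted log2 difference of -0.23 ± 0.02 (SE, edgeR adjusted p = 4.23e-08) and -0.31 on CPM. *Cul3* was higher in GABAergic cells in 7 of 7 runs, by 0.13 ± 0.02 as fitted (SE, edgeR adjusted p = 4.78e-06) and 0.05 on CPM. *inc* was lower in 7 of 7 runs, by -0.08 ± 0.03 as fitted (SE, edgeR adjusted p = 0.013) and -0.16 on CPM, which was lost without run 2 (-0.06), run 3 (-0.07) or run 7 (-0.06). For *homer* the fitted difference of 0.06 ± 0.02 (SE, edgeR adjusted p = 0.0358) turned to -0.03 on CPM with 3 of 7 runs higher, and it was lost without run 2, 3, 4 or 5 (0.04 without run 3 to 0.06 without run 4). In glutamatergic cells *Cul3* was higher by 0.06 ± 0.02 as fitted (SE, edgeR adjusted p = 0.0107) and 0.03 on CPM in 6 of 7 runs. The other 3 genes did not pass, although *homer* (0.05) passed without run 6 (0.06, edgeR adjusted p = 0.0441). These calls rest on the pairing of cells within a run, and all 5 were lost when the run was not fitted as a block.

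Over the 244 clusters, all runs summed, the 90th percentile of the cluster levels was 2.13 times the 10th for *tara*, 1.59 times for *homer*, 1.44 times for *inc* and 1.39 times for *Cul3*. The highest *tara* level among clusters of at least 200 cells was 192 CPM, in 525 cholinergic cells led by the peptide genes *CCHa2* and *AstC* and the factor *Sox21a*, with 155 to 265 CPM over the runs (median 191). The lowest in a neuronal cluster was 31.1 CPM, in 231 cells of high depth (median 40436 UMIs) led by *Pdf*, the peptide of the main pacemaker neurons, and *Trissin*, with 11.4 to 55.8 CPM over the runs and no type name. No run of one cluster reached the range of the other. For *inc*, the highest level among clusters of at least 200 cells was 68.3 CPM from 137 UMIs, in 273 cholinergic cells led by *CG15725* and *klu*, with 47.9 to 116 CPM over the runs (median 60.6). The larger ALG cluster followed at 65.0 CPM, with 0.0 to 117 CPM over the runs (median 63.1). A glutamatergic cluster of 460 cells led by *twit* and the peptide gene *Proc* stood at 63.0 CPM, with 53.2 to 73.5 CPM over the runs (median 64.5), so that its run median was above that of both. A cluster of 253 cells with *Tk*, *dimm* and *Eh*, genes of peptidergic cells, among its 10 leading genes was the lowest neuronal one of at least 200 cells, at 23.8 CPM and 8.00 to 39.7 CPM over the runs. These clusters were picked for their levels, and no test was made. *homer* was highest, among clusters of at least 200 cells, at 76.5 CPM in 327 cholinergic cells led by *H15* and *mid*, with 69.6 to 89.6 CPM over the runs. These lay above every run of the 3 KC types as summed, although single KC clusters of at least 200 cells reached up to 87.3 CPM in a run.

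**Figure D4:**
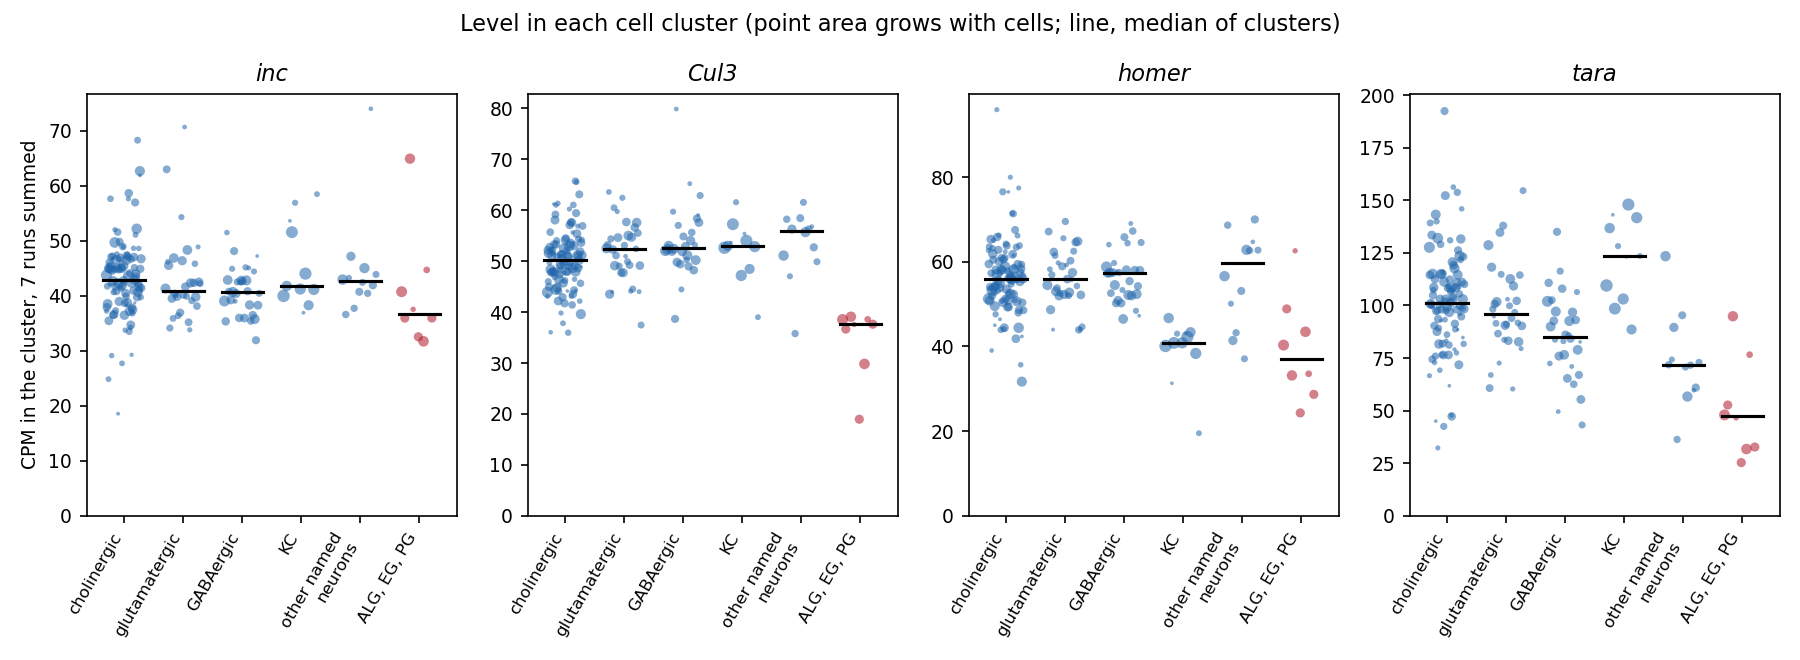
Level in CPM (vertical axis, all runs summed) of each gene in single clusters of unnamed cholinergic, glutamatergic and GABAergic neurons, KCs, other named neurons and ALG, EG and PG, where point area grows with the number of cells and the line is the median of clusters. *homer* lies low in the KC clusters, and *tara* spreads widest, up to 192 CPM.

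In the order of mean log2(CPM + 1) over 15 types, 48 of 56 neighbouring pairs over the 4 genes differed by less than 1 SD of their difference over runs, and 8 by more. The same values made the order, so the direction of each pair follows from it and neighbours are close by construction. The p-values below describe these pairs and are no independent support for the order. Of these pairs 0 passed an adjusted p of 0.05 in the exact two-sided sign-flip test of log2 CPM over 7 runs, whose smallest p of 0.0156 can pass only where at least 18 pairs reach it. In 5 pairs the unadjusted p was at that smallest value with 7 of 7 runs in 1 direction (adjusted p = 0.175, exact test), namely α′/β′-KC over adPN for *inc*, and γ-KC over PAM, PAM over α/β-KC, non-PAM over Oct and adPN over EG for *tara*. For *inc* the order from the highest mean on this log scale was ALG, α′/β′-KC, adPN, EB ring, unnamed, γ-KC, clock, 5-HT, PAM, Oct, non-PAM, α/β-KC, EG, Ilp/Dh44 and PG. For *Cul3* it ran from 5-HT and EB ring neurons to ALG and Ilp/Dh44 neurons, for *homer* from Oct and 5-HT neurons to ALG and PG, and for *tara* from γ-KC and PAM to Ilp/Dh44 neurons and PG.

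Time of day could be set side by side only between run 5, with ZT20 flies alone, and runs 6 and 7, with ZT8 flies alone. Run 5 held flies asleep or kept awake through the early night, and runs 6 and 7 flies awake in the day, kept awake since dusk or treated with gaboxadol, so ZT, condition and run cannot be told apart. In neurons *inc* stood at 40.2 CPM in run 5 and at 41.6 and 40.4 CPM in runs 6 and 7, and *tara* at 91.1 CPM beside 101 and 89.95 CPM. In glia *homer* stood at 45.7 CPM in run 5 and at 37.2 and 22.8 CPM in runs 6 and 7, with a log2 difference of 0.61 ± 0.31 (SE, edgeR adjusted p = 0.735). In EG *tara* was at 21.9 CPM in run 5, between the 50.0 and 20.1 CPM of runs 6 and 7 (-0.76 ± 0.44, SE, edgeR adjusted p = 0.644, the lowest of all).

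Over neurons, all glia, ALG, EG and KCs, 0 of 20 comparisons of the 4 genes passed in edgeR, 0 had an unadjusted p under 0.05, and 0 passed in DESeq2. Among all genes the passing shares were 0.046% in neurons, 0.0989% in glia, 0.082% in ALG, 0.69% in EG and 0.0124% in KCs. Run 5 lay between the ZT8 runs in 12 of 20 comparisons, above both in 3 and below both in 5. In neurons the SE was 0.12 for *inc* and *Cul3* and 0.15 for *homer* and *tara*, and in ALG it was between 0.38 and 0.56. Leaving aside ZT, *Cul3* in neurons was 44.5 to 47.7 CPM in runs 5 to 7 and 50.2 to 55.2 CPM in runs 1 to 4, without overlap. *inc*, *homer* and *tara* overlapped between these sets of runs. The *Cul3* difference was picked out for its values, was not tested and has no share of all genes beside it. *inc* in neurons was 52.0 CPM in run 1 and 40.1 to 43.4 CPM in the other 6 runs (with TMM scaling 47.5 and 39.0 to 45.0 CPM), whereas *tara* was lowest in run 1 (72.4 CPM, against at least 89.95 CPM).

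**Figure D5:**
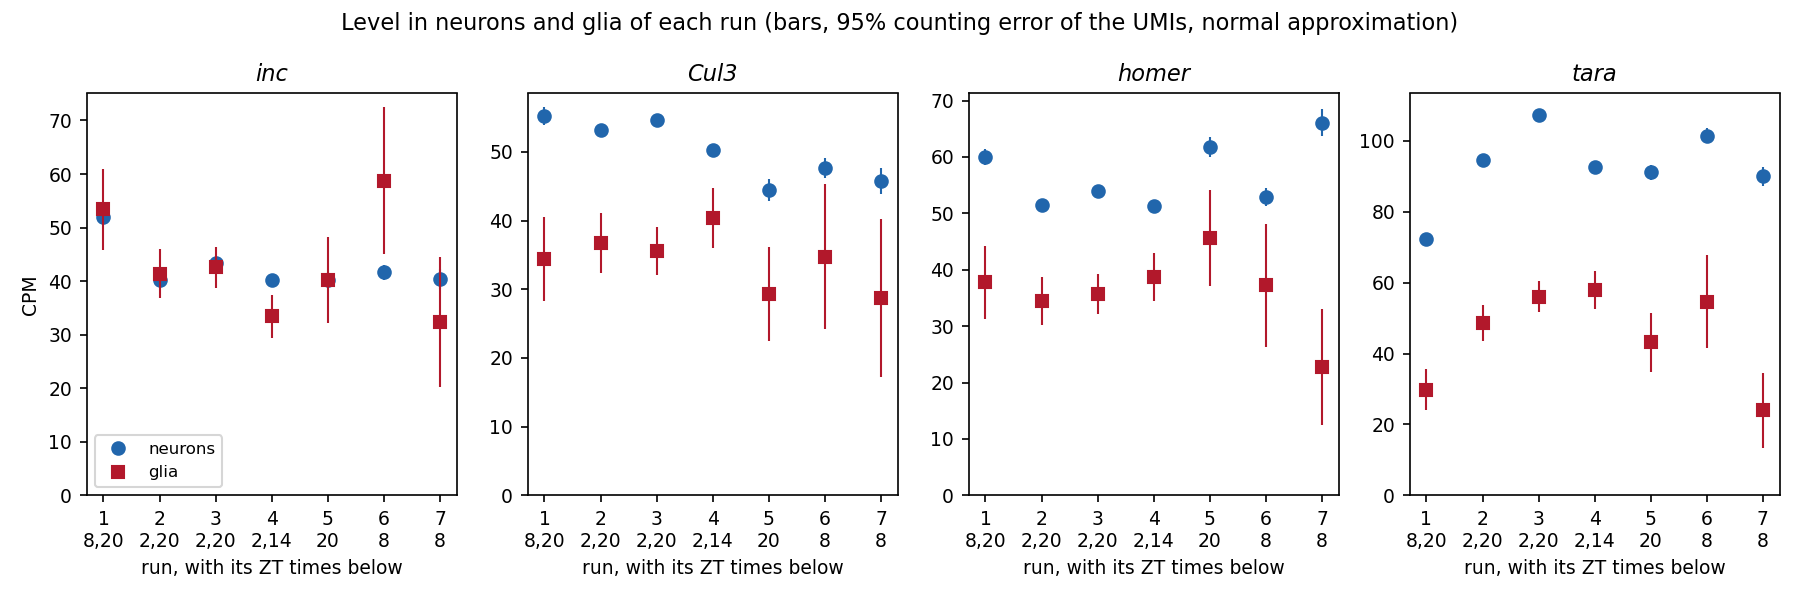
Level in CPM (vertical axis) of each gene in neurons (blue) and glia (red) of runs 1 to 7, with the ZT times of each run under its number and bars for the 95% counting error of the UMIs alone. *Cul3* in neurons is lower in runs 5 to 7 than in runs 1 to 4, a difference that was not tested. The ZT20 run lies between or close to the ZT8 runs for most genes.

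Genes of the same pathways were described by lists, which were chosen with earlier results of these data known. Between glia and neurons each of the 7 lists held genes called higher and genes called lower, beside 36.7% of all 8844 genes called higher and 37.8% called lower. The median of each list stands beside that of all genes at -0.06. Of 8 cullin and RING subunits tested, 1 was higher in glia, 2 were lower and 5 did not pass (median -0.10). The RING subunit *Roc2* stood at 51.0 CPM in glia and 104 CPM in neurons (-0.57 ± 0.08, SE, edgeR adjusted p = 0.000221), and *Roc1b*, scarce in both, at 0.614 and 1.96 CPM. Of 13 genes of *Nedd8* conjugation and removal, 8 were higher, 1 was lower and 4 did not pass, with a median of 0.30 as fitted that was -0.15 on CPM. *CSN1b*, a subunit of the COP9 signalosome that removes *Nedd8* from cullins, was higher in glia on both scales, at 18.6 and 12.4 CPM (1.00 ± 0.11, SE, edgeR adjusted p = 4.44e-05), and *APP-BP1*, a subunit of the enzyme that activates *Nedd8*, was lower, at 7.75 and 15.7 CPM.

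Of 11 BTB and KCTD adaptors of *Cul3*, 8 were lower in glia, 2 did not pass and *inc* was the only 1 called higher, which its CPM did not show. The largest differences were those of the KCTD genes *CG10440*, at 12.0 CPM in glia and 68.3 CPM in neurons (-1.97 ± 0.31, SE, edgeR adjusted p = 0.000432), and *CG10830*, at 57.3 and 293 CPM (-2.07 ± 0.35, SE, edgeR adjusted p = 0.000591). Their median was -0.42. Of 13 postsynaptic scaffold genes and partners of *homer*, 9 were lower, 2 were higher and 2, *homer* among them, did not pass (median -1.08). The neuroligins *CG34127* and *Nlg2* stood at 70.5 and 40.0 CPM in glia and at 460 and 250 CPM in neurons. Higher in glia were *Prosap*, the fly *Shank* and a partner of *homer*, at 800 and 530 CPM (1.02 ± 0.11, SE, edgeR adjusted p = 5.24e-05), and *Grip*, at 4.71 and 1.10 CPM.

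Of 11 cell cycle genes around Cyclin A, 6 were lower in glia, *tara* among them, 4 were higher and 1 did not pass (median -0.43). The 4 higher genes were scarce, with *CycA* at 5.95 CPM in glia and 0.207 CPM in neurons and *CycB* at 1.96 and 0.0449 CPM. *rux*, an inhibitor of Cyclin A with its kinase, was lower at 8.53 and 26.4 CPM (-1.08 ± 0.13, SE, edgeR adjusted p = 0.000108), as was *cdc2c* (the kinase Cdk2) at 3.34 and 9.45 CPM. Of 10 Trithorax and Brahma factors 7 were lower, 1 was higher and 2 did not pass (median -0.19), with *ash1* at 21.6 and 44.4 CPM, *osa* at 113 and 211 CPM and, on the higher side, *ash2* at 20.9 and 17.4 CPM. Of 11 other genes of sleep mutants 9 were lower and 2 higher (median -1.87). They include *qvr* (*sleepless*), which controls the potassium channel *Sh*, at 177 CPM in glia and 1170 CPM in neurons, and *Sh* itself at 295 and 1736 CPM. *cv-c*, known from sleep homeostasis in the fan-shaped body, was higher in glia at 54.0 and 24.5 CPM (1.58 ± 0.12, SE, edgeR adjusted p = 4.54e-06), and the kinase *Sik3* at 49.7 and 40.7 CPM. In these lists a gene was given with values only where 7 of 7 runs went in its direction on CPM. This agreement was thus a condition of being named and not a result.

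In γ-KC, where *tara* was highest, 8 of 10 Trithorax and Brahma factors were higher than in unnamed neurons, 1 was lower and 1 did not pass, with a median of 0.33 beside 0.0048 for all genes, of which 27.0% were higher. The other KC types, in which *tara* did not pass, gave similar counts, with 8 of 10 higher in α/β-KC (median 0.38) beside 27.1% of genes and 9 of 10 in α′/β′-KC (median 0.35) beside 28.0%. In γ-KC the postsynaptic list split into 5 higher, 5 lower and 2 not past the threshold. In GABAergic against cholinergic cells 9 of 13 postsynaptic genes were higher and 2 lower (median 0.10 beside -0.02), and 7 of 10 Trithorax and Brahma factors were lower and 0 higher (median -0.10), beside 27.6% of all genes called higher and 30.4% called lower. Between the ZT20 run and the ZT8 runs 0 genes of any list passed in any of the 5 cell classes.

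The likeness of other genes to each of the 4 was measured as Pearson's r of log2 CPM across the 15 types, averaged over 7 runs, among 6019 genes with a mean of at least 10 CPM. It is a description across types that share libraries and scaling. For *tara* the most similar genes were *Bacc* (mean r = 0.86, 0.78 to 0.92 over runs), *Crtc* (0.86) and *Set1* (0.85), for *homer* *HP4* (0.83), *alphaSnap* (0.83) and *Fis1* (0.82), and for *Cul3* *lap* (0.83), *CG14853* (0.83) and *Cals* (0.82). For *inc* the best values were lower, with *Eip63E* at 0.52 (0.24 to 0.68 over runs), *Atx2* at 0.50 and *Prosap* at 0.49 (-0.16 to 0.89). These genes were picked for the highest r. Lower values between the 4 genes follow from that choice and are given as description. Across the 15 types *Cul3* and *tara* had a mean r of 0.54 and *Cul3* and *homer* 0.53, while *inc* and *Cul3*, whose proteins act together, had 0.18 (-0.31 to 0.79 over runs). Across the 244 clusters *Cul3* and *homer* had an r of 0.45 (Spearman's rank correlation 0.35), *inc* and *Cul3* 0.18 (0.04), and *Cul3* and *tara* 0.18 (-0.08).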

How the data were processed

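Raw UMI counts of 7 runs were deposited by the authors as gene-by-barcode matrices made with Cell Ranger 3.1.0 on BDGP6, and the submitters' processing notes also name Scanpy 1.4.4. A table deposited by the authors gives the ZT times, conditions and lines of each run, and no column of it assigns cells. The 4 genes were picked by mutant phenotype and not by a measured value, but they and the pathway lists were chosen with earlier results of these data known. Total counts per run were 49949595 to 311443505 UMIs.

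Barcodes were kept from 200 detected genes upward and up to 30% of UMIs from mitochondrial genes, and 7438 doublets (4.72%) were removed by scores against simulated doublets, with expected rates of 8.19% to 29.6%. The automatic threshold failed in runs 4 and 7, which took those of runs 3 and 5. Cells were clustered in scanpy 1.11.5 (58 principal components, 15 neighbours, resolution 8) without genes that varied between runs. A marker counted where it reached 2-fold over the remaining cells and 10% of the cells of the cluster. Types needed at least 3 markers, for most with an obligatory gene such as *alrm* (ALG), *Clk* (clock neurons) or *Tdc2* (Oct). KCs needed more of their shared markers. Their subtypes were then told apart by *ab* with *mamo* (γ-KC), *Fas2* with *sNPF* (α/β-KC) or *CG8641* alone (α′/β′-KC). These limits were set after the cluster profiles were seen, and names may differ from those of the study. Clusters in which neuronal and glial markers were mixed (8852 cells), shallow glia (2121 cells) and cells with several names (139 cells) were left out. Hemocytes were not fitted, because run 5 and run 7 held under 5 of them.

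Counts were summed per run and cell type and tested with edgeR 4.0.16 in R 4.3.3 (TMM, filterByExpr, quasi-likelihood test, Benjamini-Hochberg over all genes, threshold 0.05) with the run as a block, since both sums come from the same library. The glia fit had 6 residual degrees of freedom, the transmitter fit 12, the fit over types 84 and the ZT fits, which used all 7 runs by ZT set, 2. P-values measure the residual spread between these runs. In the fit over types it is pooled over all types, so it is not the spread of 1 pair over runs. In the ZT fits it comes only from runs that share a ZT set (runs 2 and 3, runs 6 and 7). The spread of run 5 is not measured there. CPM differences were taken as log2(CPM + 1) per run and tested by an exact sign-flip test. Intervals of counts cover counting error only. On simulated counts, 93.9% of genes changed by 1 on the log2 scale were recovered between glia and neurons and 7.29% between ZT runs in glia. The simulated counts had an assumed spread, no run effects and few changed genes, unlike the data. The recovered shares are therefore not the power of the real comparisons. Alternatives were DESeq2 1.42.0, RLE scaling, no filter, no block, leaving out each run, and other cell filters and clusterings. From the lists, up to 2 genes called in the same direction in all runs with the largest change each way were named with values, and for each of the 4 genes the 3 genes most like it across types. Single clusters were chosen after their values were seen, among those of at least 200 cells.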

Additional observations from a re-analysis of the deposited data

Results flagged for a closer look

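In 8 of 88 sets of 7 runs, 1 run stood apart from the others by Dixon's test, a rule under which chance marks about 1 set in 20, and the sets share runs and cells. In 5 of the 8 the set was *inc* with run 1 as the highest: all cells (52.0 CPM, next 43.4), neurons (52.0 CPM, next 43.4), unnamed neurons (51.8 CPM, next 42.8), cholinergic neurons (54.3 CPM, next 45.0) and GABAergic neurons (47.6 CPM, next 40.3). With TMM scaling *inc* in neurons of run 1 was 47.5 CPM beside 39.0 to 45.0 CPM in the other runs, a smaller gap. In glia *inc* of run 1 did not stand apart by the same test. *homer* was highest in run 1 in γ-KC, at 48.7 CPM beside 39.4 to 43.3 CPM in the other runs. *homer* in EG was lowest in run 7, at 17.9 CPM from 8 UMIs, beside 40.3 to 50.9 CPM. *inc* in 5-HT neurons was lowest in run 6, at 28.4 CPM beside 40.3 to 47.9 CPM.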

How the results depend on the processing

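The lower *tara* level in glia passed in all 22 alternatives, and of the 24 differences of a named type from the unnamed neurons 12 passed in every alternative run. Scaling mattered most in glia. On CPM with the exact sign-flip test, the sign turned for *inc* in glia (-0.0044), *inc* in EG (-0.13), *tara* in ALG (-0.29), *homer* in EG (-0.51), *inc* in PG (-0.21), Ilp/Dh44 neurons (-0.17) and γ-KC (-0.0048), *Cul3* in Oct neurons (0.074) and *homer* in GABAergic cells (-0.030), beside *Cul3* in ALG minus EG and *homer* in γ-KC minus α/β-KC (values below). In glia *Cul3* passed the test at -0.16 with RLE, -0.17 with DESeq2, -0.23 without the filter, -0.54 by sign-flip and -0.24 with cells of at least 3000 UMIs, and ranged from -0.22 to -0.080 with 1 run left out. *homer* in glia passed at -0.22 with DESeq2, -0.32 without the filter, -0.66 by sign-flip and -0.20 in runs 1 to 4, so that DESeq2 and the unfiltered fit each called 4 of the 4 genes in place of 2, beside 6759 of 8844 and 7468 of 15061 genes. The sign-flip passes of *Cul3* and *homer* stand beside 7247 of 8844 genes called by that test. With the shallow glia added back, the differences in glia were 0.40, -0.09, -0.11 and -0.66 for *inc*, *Cul3*, *homer* and *tara*.

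Between related types the sign-flip test called 0 of 12 in place of 5, the fit of runs 5 to 7 called 3 and that of cells with at least 3000 UMIs 2, where ALG could not be fitted. By sign-flip the values were 0.51 (*inc*), -0.13 (*Cul3*), -0.28 (*homer*) and 1.05 (*tara*) for ALG minus EG, -0.025 (*homer*) and 0.55 (*tara*) for γ-KC minus α/β-KC and 0.86 (*tara*) for PAM minus non-PAM. In runs 5 to 7, ALG minus EG gave 0.40 (*inc*), -0.20 (*Cul3*) and -0.29 (*homer*), *homer* in γ-KC minus α/β-KC gave -0.17, and *inc* in PAM minus non-PAM -0.28. Without the highest doublet scores *Cul3* gave -0.021 in ALG minus EG. *homer* in γ-KC minus α/β-KC stayed near 0, at -0.0015 with RLE, -0.00016 at 20% mitochondrial UMIs and -0.0064 without the highest doublet scores. With 1 run left out the ranges were -0.12 to 0.077 (*Cul3*) and -0.44 to -0.33 (*homer*) for ALG minus EG and -0.029 to 0.041 for *homer* in γ-KC minus α/β-KC.

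Runs pair the sums because both come from 1 library. With no replicate block, 0 of the 5 transmitter calls passed, at -0.078 (*inc*), 0.13 (*Cul3*), 0.053 (*homer*) and -0.23 (*tara*) in GABAergic cells and 0.065 (*Cul3*) in glutamatergic cells, and in glia the unpaired values were 0.48, -0.08, -0.17 and -0.57 for *inc*, *Cul3*, *homer* and *tara*. Of the 56 differences of named types 17 passed without the block in place of 24, and 16 in runs 5 to 7. The transmitter fits called 3 of 8 with DESeq2, without the filter and in runs 1 to 4, 2 in runs 5 to 7, and 3 to 6 with 1 run left out. In GABAergic cells *inc* was -0.055 in runs 5 to 7 and -0.059 at resolution 4 (-0.10 to -0.063 with 1 run left out). There *homer* was 0.050 with RLE, 0.052 with DESeq2, 0.043 without the filter, 0.051 in cells of at least 3000 UMIs, 0.063 in runs 1 to 4, 0.034 in runs 5 to 7, 0.059 at resolution 4 and 0.068 with run-variable genes kept (0.040 to 0.073 with 1 run left out). In glutamatergic cells *Cul3* was 0.052 with DESeq2, 0.049 without the filter, 0.054 in runs 1 to 4, 0.050 in runs 5 to 7, 0.052 without the highest doublet scores and 0.034 by sign-flip. There *homer* was 0.065 without the highest doublet scores (0.034 to 0.062 with 1 run left out), and *tara* passed at -0.061 by sign-flip, -0.057 at resolution 16, -0.088 at resolution 4 and -0.10 with run-variable genes kept.

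The causes of these changes were not tested. Non-PAM neurons could not be fitted at resolution 4 or with run-variable genes kept. Depth limits the glial values, since single runs held as few as 3 UMIs of *inc* and *Cul3* in ALG and of *tara* in PG, and the ZT comparison rests on 3 runs.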

Other observations

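Hemocyte-like cells, 95 in all with 1 in run 5 and 3 in run 7, held 50 UMIs of *inc*, 37 of *Cul3*, 29 of *homer* and 63 of *tara*. These cells were too few to compare.

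A glial cluster of low depth that received no type name (2121 cells, median 656 UMIs) held *inc* at 23.4 CPM, *Cul3* at 27.9 CPM, *homer* at 47.4 CPM from 85 UMIs and *tara* at 18.4 CPM, the latter from 33 UMIs and the lowest level of *tara* in any of the 244 clusters. A cluster with both glial and neuronal markers (449 cells, led by *CG2016* and *CG9796*) held *homer* at 74.4 CPM, with 67.0 CPM or more in each of the 7 runs.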
